A study of Mus musculus with 12 samples.

Results

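The regions described here are stretches of mouse gene bodies, close behind the promoter, whose content of 5-hydroxymethylcytosine (5-hmC) was listed as differing between dorsal root ganglia after nerve injury. They were taken from the 3 deposited tables of differentially hydroxymethylated regions, 1 for each pair of groups, as the rows placed in a gene body with a midpoint at most 5000 bp from the listed start of the gene. Regions of Sfi1, Rn45s and Cwc22 were left out, 13 rows in all. This left 2423 of the 70430 listed regions, 335 of 12244 after peripheral lesion against control, 1280 of 35242 after dorsal column lesion against control and 808 of 22944 between the lesions. They lay in 326, 1218 and 785 genes, and 1779 genes carried at least 1 in any table. The tables call everything within 3 kb of a start promoter, so that each of these gene body regions lay between 3001 and 5000 bp downstream of its start, and none lay nearer.

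The ganglia, of levels L4 to L6, were dissected at 24 h. The PL group had a peripheral lesion of the sciatic nerve, the DCL group a lesion of the dorsal column in the spinal cord, and the control group was the uninjured, contralateral side of the PL animals. Each group had 3 enriched libraries, each from DNA pooled over 3 animals, and the 3 unenriched inputs are not used here. The labels give no strain, age or sex. Control pools therefore share animals with PL pools, while DCL pools come from other animals, and no sham-operated group is used here. The assay reads DNA of whole ganglia and no transcripts, so the tissue could not be checked by marker expression, and fewer cells of a type cannot be told apart from less 5-hmC per cell.

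5-hmC is made when TET dioxygenases oxidise 5-methylcytosine, mostly at CG dinucleotides (CpG sites). It is abundant in neurons, where it lies mainly in the bodies of transcribed genes and is sparse over CpG-rich starts. The stretch just behind the promoter often spans the first intron, a frequent place for enhancers, but the tables name no exon or intron and none is given for the regions below.

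A few of the genes also carried a listed region across the start itself. Of these starts 3, chosen after their values were seen, are shown to set a CpG-rich start beside starts with fewer CpG sites. Atl3 encodes atlastin-3, which shapes the endoplasmic reticulum, and the other starts belong to genes known by their clone names. Each line holds the 250 bases before the RefSeq start, read 5′ to 3′ on the strand of the gene, with CpG sites in capitals. The sequences are RefSeq's on GRCm38.p6, a later build than the mm9 coordinates of the tables, and the start may not be the one listed there.
Atl3: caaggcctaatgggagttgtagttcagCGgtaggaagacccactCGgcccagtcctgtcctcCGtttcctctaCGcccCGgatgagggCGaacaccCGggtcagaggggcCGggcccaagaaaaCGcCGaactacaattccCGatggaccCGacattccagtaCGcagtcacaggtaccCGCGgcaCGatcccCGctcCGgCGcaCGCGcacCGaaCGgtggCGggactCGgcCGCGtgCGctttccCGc
4921511C10Rik: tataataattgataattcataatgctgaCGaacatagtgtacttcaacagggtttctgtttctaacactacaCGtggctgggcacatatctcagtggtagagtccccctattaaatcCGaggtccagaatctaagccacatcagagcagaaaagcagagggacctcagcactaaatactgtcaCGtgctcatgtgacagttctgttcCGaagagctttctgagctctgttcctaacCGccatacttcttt
B230216N24Rik: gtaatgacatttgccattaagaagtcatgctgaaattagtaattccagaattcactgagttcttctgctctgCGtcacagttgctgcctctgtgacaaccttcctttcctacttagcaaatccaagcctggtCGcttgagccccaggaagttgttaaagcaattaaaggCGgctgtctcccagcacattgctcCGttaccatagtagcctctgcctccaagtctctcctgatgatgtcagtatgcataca
The Atl3 sequence (chr19:7494188-7494437, plus strand) holds 29 CpG sites and is 65.6% G or C, that of 4921511C10Rik (chr3:79212669-79212918, plus strand) holds 6 at 43.6%, and that of B230216N24Rik (chr1:98047794-98048043, minus strand) holds 4 at 46%. Among 32851 RefSeq starts the median was 6 CpG sites in such a window, with quartiles of 2 and 16, and 92.1% held at least 1. At Atl3 the region over the start had 32.0 ± 26.6 normalised reads after DCL against 17.1 ± 1.28 in control, and the gene body region 4782 bp downstream had 23.8 ± 20.1 against 9.49 ± 1.45 (SD, n = 3). At B230216N24Rik the values were 26.2 ± 13.8 against 10.9 ± 3.23 over the start and 21.0 ± 4.86 against 7.31 ± 1.54 at 3200 bp (SD, n = 3). In both genes the libraries of the groups overlapped over the start and lay apart in the gene body. The Atl3 difference came mostly from the first-listed DCL library, with gene body values of 47.1, 11.95 and 12.5, and its log2 ratio of 1.24 was 0.33 without that library. At 4921511C10Rik the directions were opposite, with all libraries apart in each region: over the start PL stood above DCL, at 45.9 ± 7.12 against 27.7 ± 6.02, while 3109 bp downstream PL stood below DCL, at 2.88 ± 0.372 against 13.8 ± 8.28 (SD, n = 3).

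Values are normalised read counts, reads of a region times a factor of each library, set separately for each table. A further read moved a value by 0.907, 1.499 and 1.77 in the 3 PL libraries and by 1.05, 0.668 and 0.576 in the controls of the same table. In the table of DCL against control the steps of the DCL libraries were 3.14, 1.49 and 0.658, and the first-listed DCL library was scaled up most and stands apart from the others. Library totals are not given in these tables, and the depth is known only in this relative form. The columns carry no replicate numbers, so libraries are given in listed order. The tables hold regions the authors had already selected for a difference on these same values. A test on them would not be independent, and none was run: the counts are of listed regions and adjusted p-values are the authors' own. An exact permutation test of 3 against 3 libraries could not go below 0.1.

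**Figure D1:**
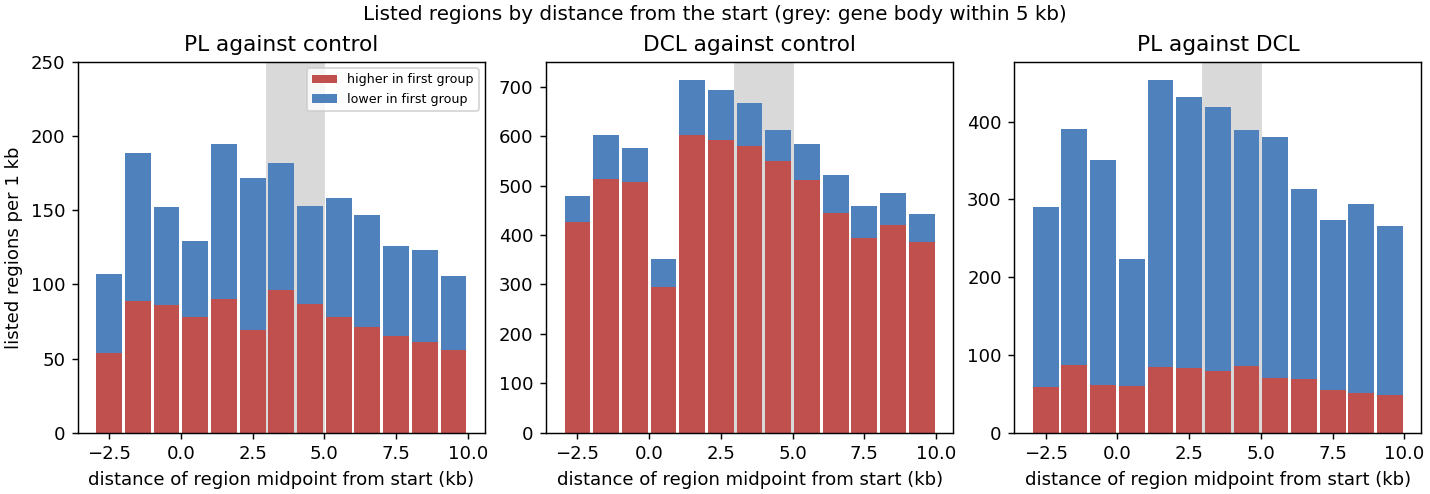
Number of listed regions in each 1 kb of distance from the gene start, one panel per comparison, stacked by direction (higher or lower in the first group named), with the regions described here shaded grey. In PL against control the bins from 3 to 4 and from 4 to 5 kb hold 182 and 153 regions, between 195 in the bin from 1 to 2 kb and 106 in that from 9 to 10 kb, while DCL against control is mostly higher at every distance.

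Beyond the first 2 kb the number of regions per 1 kb fell slowly with distance and showed no edge at the 3 kb border, as the plot of regions by distance shows. Just inside the 5000 bp limit lay a region of Mtmr6 in PL against control, at 4998 bp with 7.46 ± 4.18 against 18.98 ± 3.50, and just outside it a region of Arl15 at 5004 bp with 5.68 ± 1.32 against 19.5 ± 3.65 (SD, n = 3). In DCL against control these were Gm10787 at 5000 bp, with 22.4 ± 6.12 against 9.55 ± 5.32, and Arhgap15os at 5004 bp, with 64.4 ± 12.5 against 33.0 ± 3.87 (SD, n = 3). Between the lesions they were Treml1 at 4999 bp, with 7.81 ± 1.28 in PL against 22.9 ± 6.69 in DCL, and Vdac1 at 5003 bp, with 23.2 ± 2.22 against 38.3 ± 5.82 (SD, n = 3).

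After peripheral lesion, 183 regions were higher than control and 152 lower, 54.6% higher where 50.4% of all listed regions were higher and 49.6% lower. The share was 47.7% in gene bodies beyond 5 kb and 47.8% in the downstream part of promoters. It was 50.2% in gene bodies from 5 to 10 kb and 51.1% in the upstream part of promoters. All 3 PL libraries lay above all 3 controls in 177 of the 183 higher regions (95.6% over all higher regions of the table) and below them in 152 of 152 lower ones (100% over the table), or 97.8% of the whole table in either direction. The deposited adjusted p was under 0.01 in 162 regions, 48.4%, as against 49.4% of the table. The median of group means was 25.7 after PL against 10.7 in control where PL was higher, and 7.13 against 22.1 where it was lower. The median log2 ratio, taken with a pseudocount of 1, was 1.16 and -1.46, beside 1.19 and -1.51 over all listed regions.

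**Figure D2:**
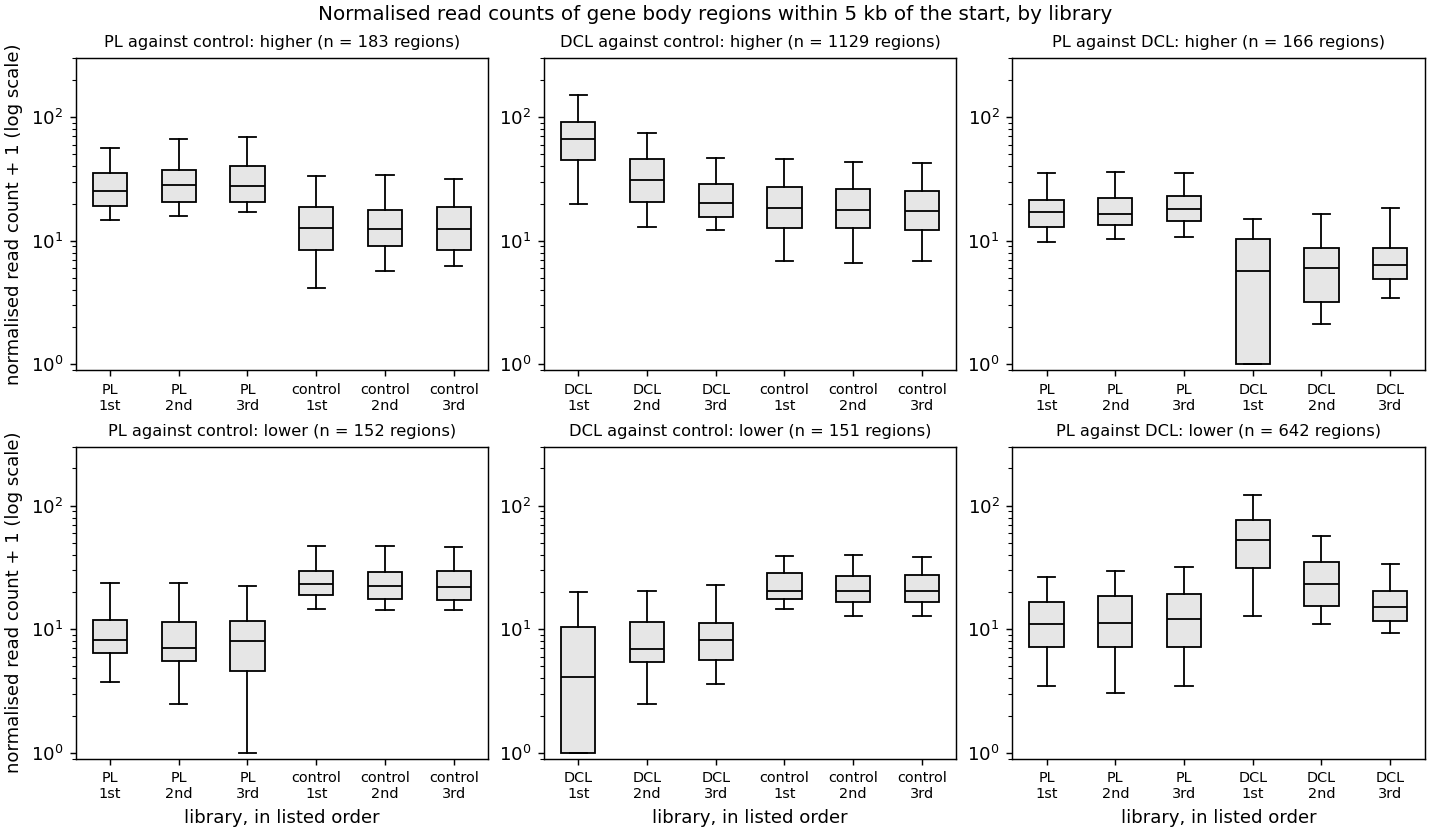
Box plots of the normalised read count plus 1 (log axis) of each library in listed order, for regions listed as higher (top) and lower (bottom) in each comparison, with the median, the quartiles and whiskers from the 5% to the 95% quantile over regions. The PL and control libraries agree within their group, with higher-region medians of 24.5, 27.0 and 26.6 against 11.6, 11.4 and 11.5, whereas the first-listed DCL library sits highest in the regions higher after DCL and lowest in those lower after DCL.

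Library medians within the lower regions were 7.25, 6.00 and 7.10 in the PL libraries against 22.1, 21.4 and 21.0 in the controls. No library of either group stood out. Those PL medians correspond to 8, 4 and 4 reads, so a single lower region rests on few reads. The coefficient of variation over PL libraries had a median of 41.2% in lower regions and 21.5% in higher ones.

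The rule for named genes takes only regions with all libraries of the groups apart, so their lack of overlap is no result. By this rule, the higher regions with the smallest adjusted p were led by Ppp2r5d. Ppp2r5d, a regulatory subunit of protein phosphatase 2A, had 91.6, 80.97 and 86.9 normalised reads in the PL libraries and 51.6, 41.4 and 50.7 in the controls (chr17:46838361-46838740, 3401 bp from the start). The groups did not overlap, and the means of 86.5 ± 5.31 and 47.9 ± 5.63 (SD, n = 3) differed 1.81-fold, the smallest fold of the 6 genes named by that measure. Slc25a15, the mitochondrial ornithine carrier, had 21.8, 14.99 and 19.5 against 8.42, 4.01 and 2.88 (chr8:23505301-23505540, 3673 bp). Its highest control stood well under the lowest PL library, a 3.68-fold difference of means, 18.8 ± 3.45 against 5.10 ± 2.93 (SD, n = 3). B9d1, a protein of the ciliary transition zone, had 30.8, 27.0 and 17.7 against 10.5, 8.02 and 5.76, with PL above control throughout (chr11:61322041-61322340, 3516 bp). Efna4 encodes ephrin-A4, a membrane-bound ligand of Eph receptors, and stood at 58.0, 49.5 and 28.4 after PL against 21.0, 17.4 and 22.5 (chr3:89138101-89138440, 3680 bp). The third PL library was the lowest there and still lay above every control. Eps8l2, an actin-regulating protein, and Ctu1, an enzyme of transfer RNA thiolation, were 2.08-fold and 2.88-fold higher. Over these 6 genes the adjusted p in the authors' deposited table ran from 0.000215 for Ppp2r5d to 0.0017 for Efna4.

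The lower regions with the smallest adjusted p lay in Tcaf2, Tgfbr2, Ap3m1, Ube2r2, Rras2 and Klf4. Tgfbr2, the type II receptor of TGF-beta, had 15.4, 21.0 and 31.9 in the PL libraries against 51.6, 52.1 and 51.9 in the controls (chr9:116080141-116080480, 4171 bp). The controls lay close together and every PL library was lower, at means of 22.8 ± 8.41 and 51.8 ± 0.276 (SD, n = 3). Klf4, a zinc finger transcription factor known in mouse retinal neurons as a brake on axon growth, had 9.97, 14.99 and 21.3 against 38.9, 40.7 and 32.9 (chr4:55542061-55542360, 3137 bp). All PL libraries were lower, 2.43-fold by the means of 15.4 ± 5.67 and 37.5 ± 4.13 (SD, n = 3). Rras2, a small GTPase of the Ras family, had 3.63, 14.99 and 3.55 against 28.4, 23.4 and 27.7 (chr7:121257201-121257460, 3965 bp), and its second PL library was far above the other two without reaching a control. Ube2r2, a ubiquitin-conjugating enzyme, had 3.63, 3.00 and 0 against 15.8, 16.0 and 13.8, where the third PL library held no read. Its mean was 6.88-fold lower, the largest fold among these 6, at counts of a few reads. Tcaf2, a TRP channel-associated factor, and Ap3m1, a subunit of the AP-3 sorting adaptor, were 2.11-fold and 2.56-fold lower. The authors' deposited table gave adjusted p-values from 0.000833 for Tcaf2 to 0.0017 for Klf4.

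**Figure D3:**
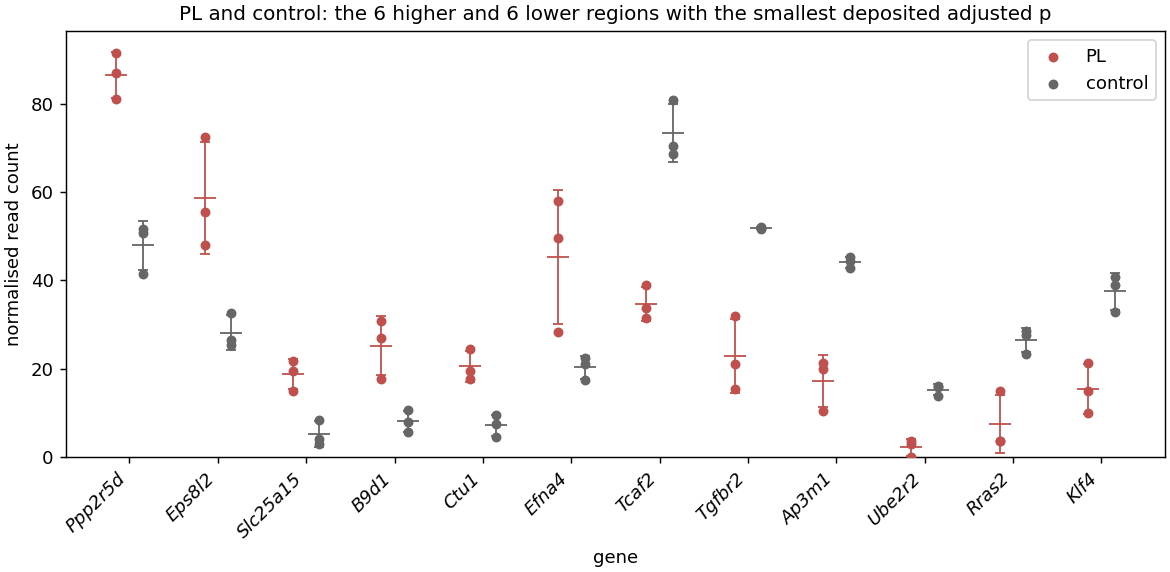
Normalised read counts of the PL and control libraries (points, n = 3 a group) with the mean and SD for the genes with the smallest adjusted p in PL against control, higher genes to the left and lower genes to the right. By the rule that chose the genes drawn, the points of the groups overlap in none of them. The PL points of Klf4 lie between 9.97 and 21.3 while its controls lie between 32.9 and 40.7.

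Nearest to the promoter border, among regions with a mean over 20 in the higher group and all libraries apart, were Zbtb48, which binds telomeres in human cells, at 3030 bp with 63.5 ± 19.5 against 30.2 ± 6.14 (SD, n = 3), and Slc26a4, the anion exchanger pendrin, at 3034 bp with 39.7 ± 12.1 against 15.8 ± 3.17 (SD, n = 3). Both were higher after PL, as were Rnpepl1 at 3038 bp and Tbc1d31 at 3056 bp. Lower ones were Ehd2, an ATPase that shapes caveolae, at 3014 bp, the lactate transporter relative Slc16a11 at 3018 bp, the tyrosine kinase gene Src at 3021 bp and the ubiquitin ligase gene Pja1 at 3044 bp. At Src the PL libraries had 17.2, 3.00 and 0 and the controls 22.1, 26.1 and 25.9. The first PL library approached the controls and the third held no read, so the mean of 6.74 ± 9.20 (SD, n = 3) describes none of them well.

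Among the 326 genes, all regions were higher in 177 and lower in 145, and 4 genes had both kinds. More than 1 region in this stretch occurred in 9 genes, with 2 at most. Afap1, an actin filament-associated adaptor, had 2 lower regions, at 3792 bp with 26.3, 19.5 and 31.9 against 51.6, 46.8 and 47.3 and at 4032 bp with 4.53, 12 and 16.0 against 28.4, 22.0 and 23.1. In both, the PL libraries lay under the controls. Ccdc130 had 2 higher regions, at 3621 and 4491 bp, with 21.0 ± 0.225 and 23.2 ± 2.102 after PL against 8.27 ± 3.14 and 9.83 ± 1.23 in control (SD, n = 3).

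The gene lists, chosen with earlier results of these data known, held few members with such a region, and 1.32% of 21896 protein-coding genes of the reference carried one between PL and control. In the list of signalling genes of the Wnt, BMP, TGF-beta and JAK-STAT pathways, 3 of 63 did, 1 higher and 2 lower. Bmp7, a BMP ligand, was higher at 31.7, 27.0 and 39.0 against 14.7, 18.7 and 11.5, while Tgfbr2 and the Wnt pathway transcription factor Tcf7l1 were lower, the latter at 5.44, 3.00 and 5.32 against 15.8, 16.7 and 13.3. By the rule for named genes, none of these 3 regions had overlapping groups. Regeneration and injury transcription factors had 1 of 30, the lower Klf4 region, and regeneration-associated effectors 1 of 29, Dpysl2. Dpysl2 encodes CRMP2, which promotes microtubule assembly in growing axons, and had 3.63, 3.00 and 3.55 after PL against 19.99, 16.7 and 12.7 (chr14:67483541-67483740, 3797 bp). The PL libraries agreed closely at a level of 2 to 4 reads, and the mean was 4.85-fold lower.

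Cytoskeleton and axonal transport genes had 2 of 64, in opposite directions. Map7, which recruits kinesin-1 to microtubules, was higher at 20.9 ± 3.13 against 9.60 ± 2.69, and Arhgef7, an exchange factor for Rac and Cdc42, was lower at 4.81 ± 3.21 against 17.0 ± 2.46 (SD, n = 3). Adhesion and matrix genes had 1 of 62, Cntnap1, the paranodal protein Caspr, which was higher at 30.8, 33.0 and 23.1 against 13.7, 14.0 and 14.4. Ion channels and transmitter receptors had 1 of 70, Scn8a, the nodal sodium channel Nav1.6, higher at 41.7, 27.0 and 28.4 against 15.8, 9.35 and 17.9. Satellite glia and Schwann cell markers had 1 of 24, the myelin protein gene Ncmap, higher at 11.8, 13.5 and 17.7 against 1.05, 4.68 and 5.76. In these 3 genes every PL library lay above every control, as the rule for named genes requires. Cyclic AMP and calcium signalling genes had 1 of 53, Prkcz, an atypical protein kinase C, at 14.8 ± 1.53 against 4.43 ± 2.01 (SD, n = 3), and DNA methylation and chromatin enzymes 1 of 47, the remodelling ATPase gene Smarca2, lower at 8.30 ± 2.68 against 22.9 ± 1.42 (SD, n = 3). No region of this kind was listed in any of 51 homeodomain and developmental transcription factors, 59 axon guidance genes, 61 growth factor and neurotrophin genes, 27 sensory neuron markers, 28 immune cell markers, 20 vascular and fibroblast markers or 28 housekeeping genes.

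After PL the share of higher regions was largest in the shortest genes. In genes under 10 kb, 58 of 75 regions (77.3%) were higher, while the shares were 50.6% of 174 in genes of 10 to 50 kb, 39.6% of 53 in genes of 50 to 100 kb and 48.5% of 33 in longer genes. Gene body regions beyond 5 kb ran from 64.8% higher in genes under 10 kb to 42.9% in genes over 100 kb, and promoter regions from 54.2% to 34.7%. In short genes a region at this distance lies near the middle of the gene, at a median of 55.2% of its length, and in genes over 100 kb at 2.86%. The part of base composition and read coverage in this was not tested. By distance, 33 of 82 regions (40.2%) were higher in the first 500 bp behind the border, from 3000 to 3500 bp, against 63.0%, 64.2% and 51.2% in the next 3 steps of 500 bp.

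**Figure D4:**
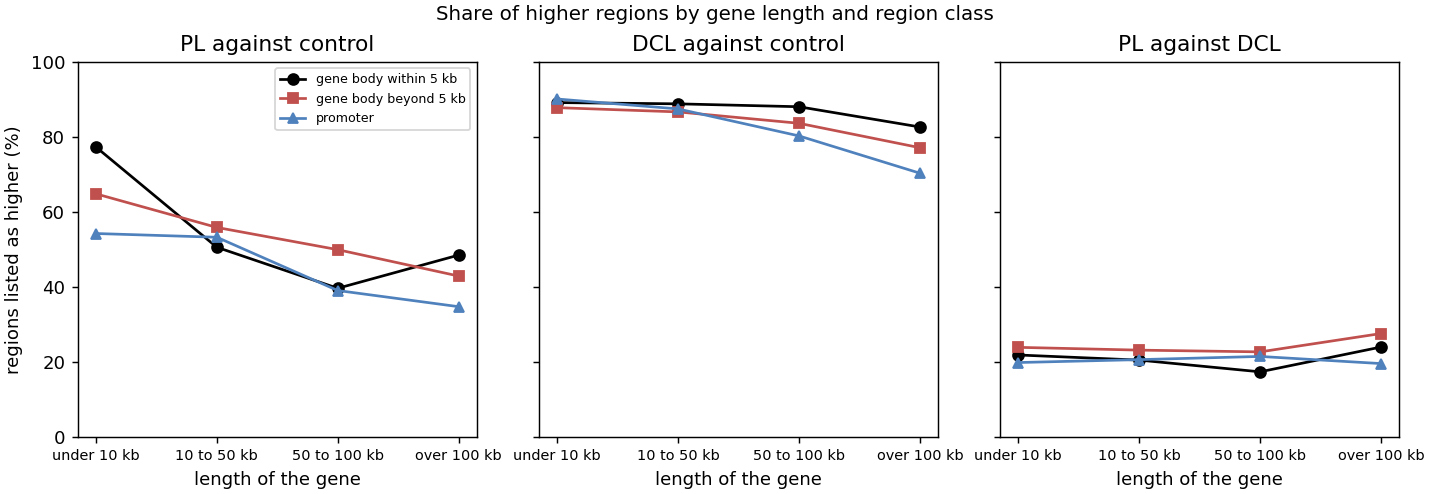
Percentage of regions listed as higher in the first group, by length of the gene, for gene body regions within 5 kb of the start, gene body regions beyond 5 kb and promoter regions, one panel per comparison. In PL against control the share within 5 kb is 77.3% in genes under 10 kb and 48.5% in genes over 100 kb, while in DCL against control it stays between 82.7% and 89.2% and in PL against DCL between 17.3% and 23.9%.

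As the plot of shares by gene length shows, DCL against control gave 89.2% higher regions in genes under 10 kb and 82.7% in genes over 100 kb. Counted once per region, the gene length had a median of 23764, 22859 and 25667 bp. It was 91085, 71721 and 74011 bp over all named regions of the same tables, where a gene with several regions counts several times. The medians lay between those of neighbouring classes. These were 19188.5, 18042 and 18903 bp for the downstream part of promoters and 31669.5, 29427 and 29753 bp for gene bodies from 5 to 10 kb. The midpoint lay past the listed end of the gene in 6, 46 and 31 of the regions described here. Among them were regions named in this text: Slc16a11 after PL, Fzd1 at 4976 bp after DCL, and Hspa1a and Tubb5 between the lesions.

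After PL, 12 of the 326 genes (3.68%) also had a listed promoter region, and 5 of the 12 pairs had the same direction. A gene body region beyond 5 kb occurred in 91 of the 326 genes (27.9%), with the same direction in 91 of 157 pairs (58.0%). After DCL, 278 of 1218 genes (22.8%) had a promoter region, with the same direction in 265 of 330 pairs. Between the lesions it was 103 of 134 pairs in 116 genes. These pairs were compared with no other pairs of regions, and a table with most regions in 1 direction gives many pairs of the same direction. Over all listed regions, 772, 2642 and 1720 protein-coding genes had a promoter region in PL against control, DCL against control and PL against DCL. In PL against control, 3608 had a gene body region beyond 5 kb, and the reference holds 21896 protein-coding genes.

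After dorsal column lesion, 1129 regions were higher than control and 151 lower. The higher share was 88.2%, where it was 82.9% of all listed regions and 81.5% of gene body regions beyond 5 kb. Regions nearer by were closer, at 86.5% in gene bodies from 5 to 10 kb and 84.7% and 87.3% in the downstream and upstream parts of promoters. The higher list depended on the first-listed DCL library, which had a median of 65.9 there against 29.9 and 19.1 in the other DCL libraries and 17.5, 16.7 and 16.6 in the controls. In reads before scaling the medians were 21, 20 and 29 against 18, 27 and 31, and 458 of the 1129 regions still had a higher mean. Each DCL library exceeded each control in 487 of 1129 higher regions, 43.1% beside 46.5% over the table, and fell short of each in 151 of 151 lower ones beside 99.7%, where 55.6% of the whole table had its groups apart. The deposited adjusted p was under 0.01 in 1166 regions, 91.1% beside 92.4%. With that library left out, 551 of the 1129 kept a 1.5-fold difference, 48.8% beside 51.4% over the table, 112 turned to the other direction, and the median log2 ratio went down from 1.12 to 0.54. All 151 lower regions kept it, beside 99.8% over the table. Of the regions kept, 78.5% were higher, beside 71.4% over the table. That share was 75.7% in gene bodies from 5 to 10 kb and 72.9% and 76.8% in the downstream and upstream parts of promoters.

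**Figure D5:**
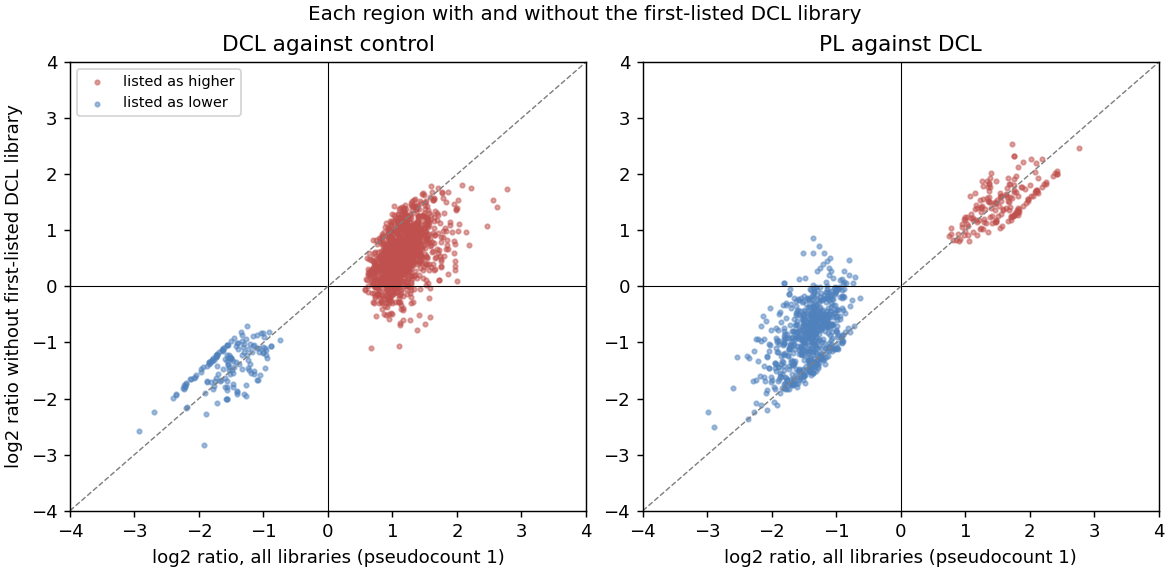
Log2 ratio of each region with all libraries (x axis, pseudocount 1) against the ratio without the first-listed DCL library (y axis), for DCL against control and PL against DCL, coloured by listed direction. Most regions higher after DCL fall under the diagonal, 112 of them past 0, and in PL against DCL 31 regions listed as lower come to lie above 0.

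Lower regions had medians of 3.14, 5.97 and 7.24 over the DCL libraries as listed, while the control medians were 19.5, 19.2 and 19.2. These were 1, 4 and 11 reads, and 49 of the 151 held no read in the first-listed library. The spread over DCL libraries was wide in both directions, with a median coefficient of variation of 62.7% in higher and 60.02% in lower regions, against 19.4% and 12.6% over the controls. Each gene named from here to the end of the DCL comparison had all libraries apart and kept 1.5-fold without that library, unless stated.

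Higher after DCL by the smallest adjusted p were, among others, Cryba1, a lens crystallin gene, Pdxdc1, Traf4, an adaptor of TNF receptor signalling, Ccbl1, a kynurenine aminotransferase, and Acot8, a peroxisomal thioesterase. The authors' deposited table gave each of them an adjusted p of 0.000267. Cryba1 had 198, 53.8 and 42.1 in the DCL libraries against 20.5, 21.7 and 37.4 in the controls (chr11:77535141-77535520, 3465 bp). The first library was far above the other two, and the log2 ratio was 1.84 with it and 0.83 without it. Traf4 had 84.7, 137 and 48.0 against 40.0, 44.6 and 44.9 (chr11:77975161-77975620, 3662 bp), where the second library was highest and the log2 ratio hardly moved, from 1.04 to 1.09.

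Nearest to the promoter border the DCL libraries agreed better in Plekhf1 and Ctage5. Plekhf1, an endosomal protein, had 50.2, 47.8 and 38.2 against 26.3, 20.5 and 18.7 (chr7:39009841-39010160, 3013 bp), and Ctage5, which works in export from the endoplasmic reticulum, had 28.2, 29.9 and 27.0 against 16.6, 15.5 and 9.62 (chr12:60235361-60235560, 3020 bp). Both were about as high in each DCL library, at means of 45.4 ± 6.36 against 21.8 ± 3.99 and 28.4 ± 1.44 against 13.9 ± 3.74 (SD, n = 3). The DCL libraries spread more in Ndufc2, a subunit of respiratory complex I, and Cops4, a COP9 signalosome subunit. Ndufc2 was 2.61-fold higher, with 15.7, 34.3 and 17.8 against 10.7, 6.20 and 9.08. Cops4 was 4.20-fold higher, with 62.7, 40.3 and 15.13 against 3.90, 9.30 and 14.96, where the third DCL library lay just above the highest control.

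The lower regions named by the same rule began with Entpd5. Entpd5, a nucleotide hydrolase of the endoplasmic reticulum, had 6.27, 4.48 and 9.21 in the DCL libraries against 38.0, 28.5 and 36.3 in the controls (chr12:85738361-85738700, 3354 bp). Every DCL library was far under every control, at 6.65 ± 2.39 against 34.3 ± 5.07 (SD, n = 3), 5.15-fold. Gcdh, glutaryl-CoA dehydrogenase of lysine breakdown, had 6.27, 2.99 and 2.63 against 16.6, 15.5 and 20.3, and Pde7a, a cyclic AMP phosphodiesterase, 9.41, 5.97 and 4.61 against 19.5, 24.8 and 20.8. Neither had a zero library nor an overlap of groups. Sall2, a zinc finger transcription factor, Ints2, an Integrator subunit, and Gxylt1, a xylosyltransferase that acts on Notch, held no read in the first DCL library and were 4.37-fold, 6.82-fold and 6.79-fold lower by the means. Their adjusted p-values of 0.000158 for Entpd5, 0.000373 for Gxylt1 and 0.000267 for the other four come from the authors' deposited table.

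Near the border, Dgkb, a diacylglycerol kinase of neurons, at 3008 bp, Arsj, an arylsulfatase gene, at 3050 bp, and Zfp426 at 3090 bp were lower, with 8.82 ± 5.32 against 21.6 ± 3.16, 6.33 ± 5.57 against 20.6 ± 0.405 and 12.3 ± 10.7 against 30.9 ± 3.14 (SD, n = 3). The first-listed DCL library held no read at Arsj and Zfp426. Without it their log2 ratios went from -1.56 to -1.04 and from -1.26 to -0.71. Of the 1218 genes, 1068 had only higher regions, 138 only lower and 12 both. More than 1 region occurred in 61 genes, with 3 at most, in Sgk1 among others. Sgk1, a kinase induced by glucocorticoids and cell stress, had 3 regions listed as higher. At 4368 bp it had 56.5, 109 and 50.7 against 26.3, 36.6 and 40.6, at 4068 bp 62.7, 34.3 and 64.5 against 27.3, 29.1 and 32.1, both with the groups apart. At 3298 bp, with 78.4, 11.95 and 18.4 against 19.5, 19.2 and 18.2, the second library lay below the controls, and without the first-listed library the log2 ratio turned from 0.90 to -0.30.

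By list, 4.99% of reference protein-coding genes carried a region of this kind between DCL and control, and 2.76% one that kept 1.5-fold without the first-listed library. DNA methylation and chromatin enzymes had 6 of 47, all higher, of which 5 kept it. Mbd4, a glycosylase that removes thymine or uracil from mismatches at CpG sites, had 12.6, 20.9 and 16.5 against 6.82, 8.68 and 4.81 (chr6:115799241-115799460, 4009 bp). The first DCL library was the lowest of the 3 and yet above each control. Kat2b, the histone acetyltransferase PCAF, had 31.4, 31.4 and 12.5 against 8.77, 10.5 and 9.08, and Arid1a, a subunit of the BAF remodelling complex, 50.2, 16.4 and 13.8 against 10.7, 4.34 and 10.2. In Kat2b the first 2 libraries were equal, and in Arid1a the first stood far above the rest. The others of the list had overlapping groups: Dnmt3b and Smarca4 kept 1.5-fold without the first-listed library, and Ehmt1 did not.

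Regeneration and injury transcription factors had 5 of 30, all higher, and 2 kept it, Stat3 and Klf4. Stat3, the transcription factor of gp130 cytokine signals after axon injury, had 75.3, 32.9 and 22.4 against 16.6, 14.9 and 17.6 (chr11:100796541-100796840, 4135 bp), graded over the DCL libraries but above each control. Klf4 had 43.9, 28.4 and 27.6 against 13.7, 17.4 and 14.96 at 4307 bp (chr4:55540941-55541140), also apart. Regeneration-associated effectors had 1 of 29, Dpysl3, which did not keep it. Homeodomain and developmental transcription factors had 4 of 51, of which 3 were higher, among them Nfix, a nuclear factor I gene, at 69.6 ± 30.6 against 30.2 ± 9.12, and the E protein gene Tcf12, at 23.7 ± 12.1 against 9.52 ± 3.77 (SD, n = 3). The homeobox gene Prrx2 was lower, at 5.89 ± 2.71 against 18.7 ± 1.92 (SD, n = 3), and all 4 kept it.

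Cyclic AMP and calcium signalling genes had 6 of 53, 5 higher and 1 lower, and all 6 kept it. The phosphodiesterase gene Pde1c had 12.6, 16.4 and 11.8 against 3.90, 4.96 and 4.27, nearly level over the DCL libraries, and Pde4a had 69.0, 31.4 and 31.6 against 12.7, 19.2 and 15.5, with the first library highest. Camkk2, a calcium-activated kinase upstream of AMPK, was 1.99-fold higher. Prkacb, a catalytic subunit of protein kinase A, was lower at 0, 7.47 and 2.63 against 13.7, 14.3 and 14.4, with no read in the first library. Adhesion and matrix genes had 7 of 62, 6 higher and 1 lower, and 6 kept it. Higher were the E-cadherin gene Cdh1, 2.43-fold, the dystroglycan gene Dag1, 2.55-fold, and the basement membrane collagen gene Col4a2, 2.04-fold. The laminin receptor gene Itga7 was lower, at 3.14, 2.99 and 2.63 against 13.7, 11.2 and 12.8, with little spread in either group.

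Growth factor and neurotrophin genes had 7 of 61, 6 higher and 1 lower, and 3 kept it. Ntrk3, the neurotrophin-3 receptor TrkC of proprioceptors, had 18.8, 16.4 and 16.5 against 5.85, 9.30 and 4.27 (chr7:85718321-85718520, 4304 bp), with the DCL libraries close together above the controls. Fgfr1 was lower, at 12.6, 13.4 and 7.90 against 20.5, 22.9 and 27.8, also apart. In the Wnt, BMP, TGF-beta and JAK-STAT list 8 of 63 had one, 6 higher and 2 lower, and 4 kept it. The lower ones were Fzd1, a Wnt receptor, at 6.16 ± 3.11 against 21.8 ± 3.18, and the cytokine receptor kinase gene Jak1, at 6.22 ± 3.07 against 14.97 ± 2.57 (SD, n = 3). The midpoint of this Fzd1 region, at 4976 bp, lay past the listed end of the gene. Cytoskeleton and axonal transport genes had 7 of 64, 5 higher and 2 lower. Only the lower ones kept it, Ank2, ankyrin-B of the axon, at 43.9, 38.8 and 23.7 against 75.1, 57.0 and 66.3, and the kinesin gene Kif21b at 4.34 ± 4.28 against 22.5 ± 5.25 (SD, n = 3). At Kif21b the first-listed DCL library held no read.

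Axon guidance genes had 1 of 59 and ion channels and transmitter receptors 1 of 70, Sema6d and Grin2a, and neither kept 1.5-fold. Of the cell type markers, sensory neurons had 2 of 27, Ntrk3 and the nociceptor receptor gene Mrgprd, the latter at 40.8, 17.9 and 16.5 against 6.82, 12.4 and 10.7. Satellite glia and Schwann cells had 4 of 24, 3 higher and 1 lower, and 2 kept it, including Mal, a myelin proteolipid gene, lower at 3.81 ± 3.74 against 15.03 ± 2.40 (SD, n = 3). At Mal the first-listed DCL library held no read. Vascular and fibroblast markers had 1 of 20, Vwf, and housekeeping genes 2 of 28, Gapdh and Vcp, none of which kept it. Immune cell markers had 0 of 28.

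Between the lesions, 166 regions were higher after PL than after DCL and 642 lower. The higher share was 20.5%, where it was 24.9% of all listed regions and 25.1% of gene body regions beyond 5 kb. Regions nearer by had similar shares, 19.2% in gene bodies from 5 to 10 kb and 20.5% and 20.2% in the downstream and upstream parts of promoters. This comparison shares its libraries with the others, so it is no further evidence for them. All libraries lay apart in 164 of 166 higher regions, beside 98.5% over the table, and in 350 of 642 lower ones, 54.5% beside 59%, where 68.9% of the whole table had its groups apart. Lower regions had library medians of 9.92, 10.3 and 11.04 in PL against 51.5, 22.2 and 14.1 in DCL, again with the first-listed DCL library on top. Without it 446 of 642 kept 1.5-fold, 69.5% beside 70.4%, and the median log2 ratio moved from -1.40 to -0.83. All 166 higher regions kept it, beside 100% over the table, with medians of 16.1, 15.4 and 17.2 against 4.68, 4.99 and 5.36. The adjusted p was under 0.01 in 747 regions, 92.5% beside 93.1%.

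Regions higher after PL than after DCL had a median coefficient of variation of 16.0% over the PL libraries and 45.6% over the DCL libraries. By the rule, each gene named in this comparison had all libraries apart and kept 1.5-fold without the first-listed DCL library, unless stated. Ctns, the lysosomal cystine transporter, had 22.3, 25.7 and 29.4 in PL against 4.68, 9.97 and 8.29 in DCL (chr11:73008981-73009300, 3381 bp). The groups were far apart at 25.8 ± 3.57 and 7.65 ± 2.70 (SD, n = 3), 3.38-fold. Lxn, a carboxypeptidase inhibitor, had 13.0, 15.4 and 17.2 against 0, 2.22 and 3.90 (chr3:67263901-67264140, 3809 bp), and Stk24, the kinase MST3, 22.3, 35.0 and 47.8 against 18.7, 8.86 and 11.2. The DCL values of Lxn are those of a few reads, while Stk24 was graded over the PL libraries and apart. Lpin1, a phosphatidate phosphatase, Grhl3, a grainyhead transcription factor, and Zfp653 were 2.58-fold, 2.78-fold and 3.53-fold higher, and the authors' deposited table gave an adjusted p of 0.00026 for each of these 6 genes. Close behind the border were Rundc3a at 3023 bp, Pard3b, a relative of a cell polarity gene, at 3062 bp, and Jph4, a neuronal junctophilin, at 3192 bp. Rundc3a had 20.5, 17.5 and 24.5 against 7.02, 6.65 and 6.83, with the DCL libraries almost equal.

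The lower regions after PL with the smallest adjusted p included Vdac3, and the authors' deposited table gave 0.00026 for it and for each of the other five genes of that rule. Vdac3, a channel of the outer mitochondrial membrane, had 15.5, 12.3 and 8.59 against 96.0, 28.8 and 21.5 (chr8:23700461-23700840, 3635 bp). The groups were apart, but the first DCL library stood far above the others. The mitochondrial carrier gene Slc25a27 had 3.72, 3.09 and 4.91 against 53.9, 21.1 and 11.2 (chr17:43798941-43799240, 4874 bp) and Fanca, of the Fanconi anaemia repair pathway, 8.06, 6.17 and 9.81 against 67.9, 31.0 and 15.1. With and without the first-listed DCL library their log2 ratios were -2.60 and -1.80, and -2.11 and -1.42. Without it those of Acadl, an acyl-CoA dehydrogenase, Cdk12, a kinase of the transcription machinery, and Ccbl1 were -0.70, -1.05 and -0.56. Near the border were Stat5b at 3019 bp, Pak1ip1 at 3061 bp and the heat shock protein gene Hspa1a at 3081 bp, the last with 5.58, 7.20 and 8.59 against 37.5, 14.4 and 15.1.

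Of the 785 genes, 159 had only higher regions, 621 only lower and 5 both, and 23 had 2 regions. Per list, 3.21% of reference coding genes had one and 2.40% one that kept 1.5-fold. All 7 of 63 genes of the Wnt, BMP, TGF-beta and JAK-STAT list with a region were lower after PL, and 4 kept it, Tgfbr2, Fzd1 and Stat5b among them. Fzd1 had 18.6, 16.5 and 13.5 against 25.8, 38.8 and 34.1 at 3986 bp. Regeneration and injury transcription factors had 5 of 30, all lower, and 3 kept it. Nfe2l2, the oxidative stress factor NRF2, had 11.8, 10.3 and 4.91 against 23.4, 23.3 and 21.5, and Smad1, a BMP signal transducer, 22.3, 18.5 and 18.4 against 70.2, 36.6 and 26.3. The DCL libraries agreed at Nfe2l2, while the first was highest at Smad1, and PL lay below DCL in both. DNA methylation and chromatin enzymes had 4 of 47, all lower and all keeping it, with Mbd4 at 4.96, 4.11 and 2.45 against 14.1, 13.3 and 17.1 and the histone methyltransferase gene Ehmt1 at 14.1 ± 2.70 against 34.6 ± 20.05 (SD, n = 3).

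Cytoskeleton and axonal transport genes had 5 of 64, 3 higher and 2 lower, and the 3 higher ones kept it. Kif3a, a kinesin-2 motor subunit of cilia and axons, had 18.0, 26.7 and 25.8 in PL against 4.68, 6.65 and 10.2 in DCL (chr11:53384321-53384560, 3569 bp). Clasp2, a microtubule plus-end protein of growth cones, had 34.1, 38.1 and 29.4 against 9.36, 19.9 and 18.0, and Arhgef7 43.4, 51.4 and 54.0 against 35.1, 23.3 and 29.3. PL was the higher group in each library of these 3. Axon guidance genes had 4 of 59, 1 higher and 3 lower, and 3 kept it: the Slit-Robo GTPase-activating gene Srgap1 was higher at 19.1 ± 1.69 against 8.88 ± 2.58, and the ephrin gene Efna5 and the semaphorin gene Sema6d were lower at 6.85 ± 1.69 against 20.2 ± 11.1 and 18.6 ± 2.37 against 39.8 ± 17.3 (SD, n = 3). Cyclic AMP and calcium signalling genes had 3 of 53, 1 higher and 2 lower, all keeping it. The higher one, the ryanodine receptor gene Ryr1, had 8.68, 9.26 and 16.0 against 0, 0 and 2.44, where DCL held reads in 1 library only, and Pde4a was lower at 7.46 ± 2.34 against 26.2 ± 17.9 (SD, n = 3).

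In the remaining lists, growth factor and neurotrophin genes had 2 of 61, both lower and both keeping 1.5-fold. Adhesion and matrix genes had 3 of 62, all lower, and Dag1 kept it at 6.20, 4.11 and 4.91 against 32.8, 12.2 and 11.2. Homeodomain and developmental factors had 2 of 51, Etv5 and Tcf12, both lower and kept, at 10.2 ± 0.366 against 27.2 ± 11.9 and 17.6 ± 4.55 against 31.2 ± 5.03 (SD, n = 3). The potassium channel gene Kcnh2 was the 1 of 70 ion channel and receptor genes, lower at 24.8, 23.7 and 29.4 against 51.5, 48.7 and 44.4. Regeneration-associated effectors had 1 of 29, Dpysl3, and glial markers 1 of 24, Glul, neither kept. Vascular and fibroblast markers had 2 of 20, and the matrix proteoglycan gene Dcn kept it, lower at 4.11 ± 1.88 against 12.6 ± 2.25 (SD, n = 3). Housekeeping genes had 2 of 28, among them the tubulin gene Tubb5, lower at 6.30 ± 2.85 against 18.8 ± 6.99 (SD, n = 3), and sensory neuron and immune markers had 0 of 27 and 0 of 28.

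Both lesions were compared with the same controls, so the values of regions that share bases in both tables are set side by side without a test. Lower after each lesion, with all libraries apart, were Sfswap, a splicing regulator, and Nmnat2, an enzyme of NAD synthesis that keeps axons alive. At Sfswap PL had 13.6, 13.5 and 17.7 against controls of 53.7, 30.7 and 35.7, and DCL had 9.41, 5.97 and 11.8 against 41.9, 22.3 and 27.8 as scaled in its own table. Nmnat2 had 2.72, 1.5 and 7.10 after PL against 13.7, 14.0 and 15.6, and 0, 8.96 and 7.24 after DCL against 17.5, 16.7 and 19.2 (chr1:154806821-154807020 in the PL table). Kremen1, a Dickkopf receptor that dampens Wnt signals, had the same region in both tables, chr11:5158081-5158280, at 3.8 ± 2.43 against 14.8 ± 2.26 after PL and 3.15 ± 3.87 against 13.7 ± 2.104 after DCL (SD, n = 3). At Kremen1 the first-listed DCL library held no read. Lrrc43, Ccdc83 and Mgme1, a nuclease of mitochondrial DNA, were also lower in both. Higher in both were Cygb, the oxygen-binding cytoglobin, and Msrb1, a methionine sulfoxide reductase. Cygb had 42.6, 25.5 and 31.9 against 13.7, 16.0 and 16.1 after PL and 43.9, 50.8 and 40.8 against 17.5, 19.8 and 21.9 after DCL. Msrb1 had 19.95, 24.0 and 19.5 against 5.26, 10.0 and 6.92 and 15.7, 14.9 and 21.1 against 2.92, 9.30 and 5.88. In these 2 genes each injured library exceeded each control. Lect2, Tmem87a, D1Ertd622e and Cldn34d were listed as higher in both tables, but their DCL libraries overlapped the controls. Cldn34d overlapped after PL too, with 48.96, 149.95 and 264 in the PL libraries against 67.3, 57.4 and 69.2 in the controls.

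A region in all 3 tables occurred in 13 genes, singled out here after their values were seen. At Tgfbr2 the region chr9:116080141-116080480 was lower after PL than in control and, with the same boundaries, lower after PL than after DCL, at 10.5, 14.4 and 22.1 against 32.8, 36.6 and 30.7. A neighbouring region at 3131 bp was listed as higher after DCL than in control, with 43.9, 89.6 and 23.7 against 29.2, 29.1 and 23.0, where the DCL library listed last lay among the controls. Ctns was higher after PL than in control at 4391 bp, with 18.1, 18.0 and 21.3 against 5.26, 4.01 and 8.65, and than after DCL in the same region, with 12.4, 12.3 and 14.7 against 4.68, 4.43 and 2.44. At 3381 bp DCL was lower than control, with 3.14, 4.48 and 3.95 against 16.6, 12.4 and 16.6, and all libraries were apart in each. Usp16, a histone H2A deubiquitinase, was lower after PL at 4180 bp, with 27.2, 22.5 and 28.4 against 44.2, 52.8 and 47.3, and higher after DCL at 3600 bp, with 47.1, 68.7 and 31.6 against 19.5, 22.9 and 24.0. Cd109, a TGF-beta co-receptor, was higher than control after both lesions but in different regions, at 23.2 ± 4.72 against 10.1 ± 3.55 at 3967 bp after PL and 18.6 ± 7.41 against 6.92 ± 1.66 at 3567 bp after DCL (SD, n = 3). At 3907 bp, in a region that shares bases with the one higher after PL, PL stood above DCL, with 20.45, 20.57 and 14.72 against 0, 3.32 and 10.24. The others included Abhd17b, Agpat3, Cops4, Gnb5, Ift43, Mgme1, Mtfmt and Tmem87a. In Ift43 and Mtfmt the DCL direction came from the first-listed library alone: Ift43 had 84.7, 10.5 and 8.55 against 24.4, 20.5 and 19.2 at 4009 bp.

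The injury-response genes Atf3, Jun, Sox11, Gap43, Sprr1a and Bdnf, and the genes of the 5-hmC-forming enzymes Tet1, Tet2 and Tet3, had 0 regions of this kind in the 3 tables. Outside this stretch some of them did have listed regions. Tet3 had 2, 6 and 4 in PL against control, DCL against control and PL against DCL, while Jun and Sprr1a had 0 in each. The tables hold no value for a stretch that was not listed, so the level of 5-hmC in this part of these genes is not known from them.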

How the data were processed

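5-hmC-bearing DNA fragments were captured from pooled ganglia and sequenced. Per the submitters' processing notes, MACS2 2.1.1, Bowtie2 2.2.0 and SAMtools 0.1.19 were among the tools and mm9 was the mouse build, with no roles stated, and the program that called the regions is not given in the sources used here. Per the file headers, each row of the authors' tables gives normalised counts of the single libraries, the mean signal of each group, an enrichment ratio over a background that is not named, a log2 fold change, a p-value and an adjusted p-value. The deposited enrichment ratio was not used here.

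The value of 1 read was recovered for each library from the low deposited values, of which 100% under 20 reads were whole within 0.1 of a read. Normalisation was separate for each table, and levels are therefore compared only inside 1 table. Members were taken from the deposited distance to the start, and direction from the deposited group means. Fold changes are ratios of group means, and log2 ratios were recomputed with a pseudocount of 1. A region was called apart where all 3 libraries of 1 group lay beyond all 3 of the other, and kept where a 1.5-fold difference remained without the first-listed DCL library. Only the recovery of the value of 1 read was tested on simulated data. The members and the gene lists were chosen with earlier results of these data known.

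Genes were named by rule: all libraries apart and, with DCL, kept, then the 6 smallest adjusted p-values and the 4 nearest to the start with a mean over 20 in the higher group, in each direction, the 3 genes with most regions, regions shared by both lesion tables, up to 4 genes a list, and the injury and TET genes. Names of predicted genes were passed over among the smallest adjusted p-values. Some genes that the rule names are not reported here. The lists were regeneration and injury transcription factors, regeneration-associated effectors, developmental transcription factors, DNA methylation and chromatin enzymes, axon guidance, adhesion and matrix, cytoskeleton and transport, ion channels and receptors, growth factors, cyclic AMP and calcium, developmental and cytokine signalling, housekeeping genes, and markers of sensory neurons, glia, immune and vascular cells. No model was fitted to the counts, since the tables hold only regions selected on them. Alternatives were stricter adjusted p-values, a limit of 10 kb, genes in place of regions, reads before scaling, a pseudocount of 5 and each library left out in turn. Python 3.11.15 with pandas 2.3.3, numpy 2.4.6 and matplotlib 3.10.9 was used.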

Additional observations from a re-analysis of the deposited data

Results flagged for a closer look

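Agpat3, an acyltransferase of phospholipid synthesis, had overlapping regions that went in opposite directions after the lesions. They share bases over less than 50% of the shorter region, so a limit of 50% would not pair them. At 3665 bp from the start the PL libraries had 7.25, 12 and 8.87 normalised reads against 26.3, 21.4 and 40.3 in the controls, a log2 ratio of -1.55. At 3865 bp the DCL libraries had 100.4, 64.2 and 49.4 against 41.9, 33.5 and 44.9, a log2 ratio of 0.82. All libraries were apart in both, and without the first-listed DCL library the second ratio was 0.49. The difference between the lesions was not tested, and both are set against the same controls.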

How the results depend on the processing

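Under a deposited adjusted p below 0.01, PL against control held 95 higher and 67 lower regions. A limit of 10 kb gave 514 and 481 in PL against control, 3284 and 487 in DCL against control and 460 and 1876 in PL against DCL, by the construction of a wider stretch. A limit of 2 kb holds no gene body region. A pseudocount of 5 gave median log2 ratios of 0.94 and -1.12 in PL against control, -1.15 in the regions lower after DCL, and 1.09 and -1.12 in PL against DCL. In reads before scaling, 458 of the 1129 regions higher after DCL had a higher mean; the cause was not tested.

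With each library left out in turn, regions keeping 1.5-fold numbered 176 to 183 higher (median log2 ratio 1.12 to 1.19) and 152 to 152 lower (-1.50 to -1.41) in PL against control. The ranges were 551 to 1128 higher (0.54 to 1.41) and 151 to 151 lower (-1.68 to -1.38) in DCL against control, and 166 to 166 higher (1.48 to 1.65) and 446 to 642 lower (-1.69 to -0.83) in PL against DCL. The lowest counts with DCL, 551 and 446, came without the first-listed DCL library. Without it 4 of 192 named regions reversed: Sgk1 at 3298 bp to -0.30, Ift43 at 4009 bp to -1.09 and Mtfmt at 3201 bp to -0.047 in DCL against control, and Ift43 at 4029 bp to 0.72 in PL against DCL. Without each other library in turn, the far ends of their ranges were 1.31, 1.12, 1.60 and -1.73. Most named regions with DCL had been chosen to keep 1.5-fold without the first-listed DCL library, so they could not reverse. Those of PL against control hold no DCL library, so the small number of reversals is no sign of stability. Among all regions described here, 112 higher ones reversed in DCL against control and 31 lower ones in PL against DCL. Of 1344 values of named regions under an alternative, 1189 moved by less than the spread between the libraries of the first group named, 151 moved more and 4 reversed. In DCL against control that spread includes the first-listed DCL library, so a move below it is no sign of stability. By the same measure, the fall of the median log2 ratio of higher regions from 1.12 to 0.54 without that library was less than the spread.

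No paired analysis was possible because the count columns carry no replicate numbers. Count models with other normalisations or filters were not run. A limit of 50% of the shorter region on shared bases between the lesion tables, in place of 1 bp, left out the pair of Agpat3 regions, and counts of overlap are not given because the tables share libraries. Lower regions rest on a median of 8, 4 and 4 reads in the PL libraries and 1, 4 and 11 in the DCL libraries, which limits their fold changes.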
